A study of Mus musculus with 8 samples.

Results

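Car3 encodes carbonic anhydrase 3, and it is 1 of 3903 gene symbols in the table of cluster markers that accompanies this single-cell RNA experiment on mouse fat cell precursors. Its 12 entries, 1 for each of the 12 cell clusters numbered 0 to 11, were taken out of 13337 entries in all. The gene was chosen on measured values, because an earlier reading of the same table had placed it at the head of cluster 11. Its values are therefore a description and carry no test.

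The cells were white preadipocytes from the inguinal fat of C57BL/6 mice, either wild type (WT) or lacking both Hmgn1 and Hmgn2 (DKO), grown on collagen-coated plates. Each genotype was sampled as preadipocytes on day 0 and again on day 6 of an induction with insulin, dexamethasone, IBMX, T3 and rosiglitazone, followed by maintenance in insulin and T3. There were 4 groups of 2 samples, 8 samples in all, and the study used them to ask whether loss of the HMGN proteins speeds the change of white fat cells into brown-like ones. The table pools the cells of all 8 samples and names no sample, genotype or day, so no value below has a replicate or an SD, WT and DKO cells cannot be compared from it, and the number of cells and the read depth behind each value are unknown. The loss of Hmgn1 and Hmgn2 in the DKO samples could not be checked for the same reason.

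Carbonic anhydrases are zinc enzymes that interconvert carbon dioxide and bicarbonate. Carbonic anhydrase 3 is a cytosolic member of the family with low hydratase activity, and it is abundant in white fat and in slow skeletal muscle. Its cysteines can bind glutathione, and a part in protection from oxidants has been proposed. Bicarbonate is also the substrate of the carboxylases that open fatty acid synthesis and refill the citrate cycle.

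In the mm10 build (GENCODE M21) Car3 lies on the plus strand at chr3:14863512-14872523 and is protein-coding, with 7 exons in its main transcript of 1679 bases. It stands between Car1 and Car2 in a row of carbonic anhydrase genes, 13750 bases from Car2 and 200510 bases from Car13. The coding sequence of 783 bases shared 65.2% of aligned positions with that of Car2, 63.7% with Car13 and 51.4% with Car5b, which is on chromosome X and encodes a mitochondrial enzyme. Because a 3′ library assigns reads to a gene by sequence, it matters how long a stretch these relatives share. The longest exact stretch was 14 bases with Car2, 12 with Car13 and 21 with Car5b. Pieces of 25 bases cut from end to end of the Car3 transcript occurred in 0 of 141764 transcripts of other genes, a search that would have found any shared stretch of 49 bases or more. The coding windows that hold the stretches shared with Car2 and Car5b are shown 5′ to 3′ with the shared bases in capitals. Both fall in exon 3 of Car3, at chr3:14866880-14866893 and chr3:14866880-14866900. The Car2 stretch is in exon 3 at chr3:14895099-14895112 on the plus strand, and the Car5b stretch is in exon 4 at chrX:163991372-163991392 on the minus strand.
Car3 beside Car2: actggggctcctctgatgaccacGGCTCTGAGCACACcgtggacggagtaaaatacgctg
Car2: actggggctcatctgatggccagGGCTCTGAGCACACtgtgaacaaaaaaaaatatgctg
Car3 beside Car5b: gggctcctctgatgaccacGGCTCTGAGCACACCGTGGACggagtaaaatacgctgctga
Car5b: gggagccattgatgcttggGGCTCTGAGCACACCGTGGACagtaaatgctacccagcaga

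Car3 was present in most cells of 5 clusters and in almost none of the other 7. The measure is detection, the percent of a cluster's cells in which the transcript was found at all, as the authors deposited it for the pooled cells, beside the percent in all cells outside that cluster. Detection does not say how many transcripts a cell held. In the authors' values Car3 detection was highest in cluster 11, at 94.6%. Clusters 8 and 6 had 72.4% and 71.5%, and clusters 4 and 2 had 62.1% and 61.7%. The next value down was 4.4%, in cluster 7. Clusters 9, 5 and 0 followed with 2.1%, 1.9% and 1.6%, and clusters 10, 3 and 1 with 0.9%, 0.8% and 0.6%. No cluster lay in the 57.3 percentage points between cluster 7 and cluster 2.

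**Figure D1:**
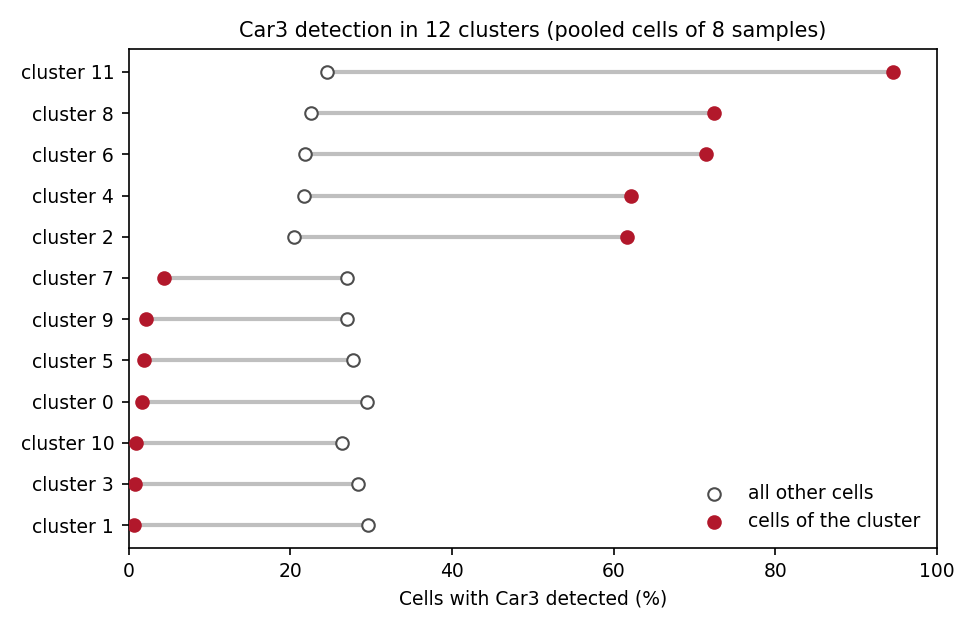
Percent of cells with Car3 detected (x axis) in each of the 12 clusters (y axis), as filled points, and in all other cells, as open points. Clusters 2, 4, 6, 8 and 11 lie between 61.7% and 94.6%, and the remaining 7 clusters between 0.6% and 4.4%.

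The order within each set is less firm than the gap between them. Clusters 8 and 6 differed by less than 1 percentage point, as did clusters 4 and 2, and since the numbers of cells are unknown these neighbours cannot be told apart. The same holds for clusters 9, 5 and 0 and for clusters 10, 3 and 1. In droplets, RNA set free by broken cells gives some detection in cells that do not use a gene. No cluster is known to lack Car3 and the depth per cluster is not given, so values of 0.6% to 4.4% were not read as expression. Whether free RNA adds to the values of clusters 2, 4, 6 and 8 was not tested.

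Most Car3-positive cells came from clusters 2, 4, 6 and 8. The size of each cluster was solved from the detection fractions, because a gene has only 1 level of detection in the pooled cells, which every cluster and its complement must add up to. For Car3 the 12 clusters gave 25.5% of all cells, with a spread of 0.0862 percentage points between them. Clusters 2, 4, 6, 8 and 11 together held 36.6% of all cells and 96.1% of the cells with Car3 detected. Over these 5 clusters together Car3 was found in 66.9% of cells, and over the other 7 clusters, with 63.3% of all cells, in 1.59%.

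Cluster 2 supplied the largest part, 29.3% of the Car3-positive cells from 12.1% of all cells. Clusters 4, 6 and 8 supplied 23.4%, 20.9% and 16.8%, from 9.59%, 7.46% and 5.92% of all cells. Cluster 11 had the highest detection but only 1.5% of all cells, and it supplied 5.57% of the Car3-positive ones, 3.71 times its share of cells. Clusters 0 and 1, the largest with 14.3% and 14.1% of all cells, supplied 0.9% and 0.333%. Most cells in which Car3 was detected thus lay outside cluster 11, where it was most frequent.

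**Figure D2:**
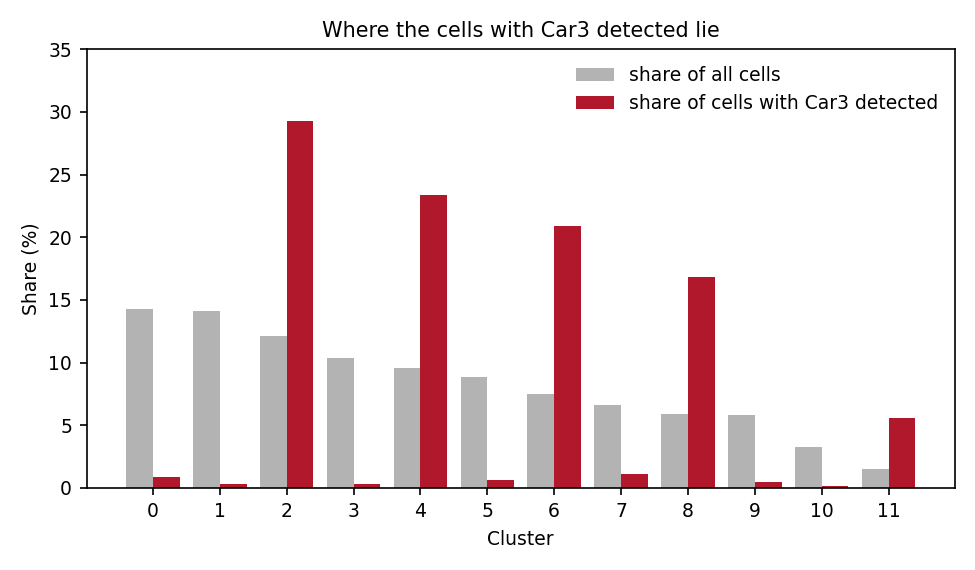
Share in percent (y axis) of all cells, in grey, and of the cells with Car3 detected, in red, for each cluster (x axis), solved from pooled detection fractions. Clusters 2, 4, 6 and 8 hold 29.3%, 23.4%, 20.9% and 16.8% of the Car3-positive cells, and cluster 11 holds 5.57%.

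The table lists for each cluster only genes that passed the authors' own minimums, and among these Car3 was near the extreme in most clusters. The difference of detection, cluster minus all other cells, was 70.1 percentage points in cluster 11, which placed Car3 at rank 38 of 2487 listed genes, 59.5% of which were detected in a larger share of that cluster's cells than elsewhere. In cluster 8 the difference was 49.8 points (rank 14 of 1126, with 42.3% of listed genes in the same direction) and in cluster 2 it was 41.2 points (rank 14 of 1133, with 49.3%). Cluster 6 had a difference of 49.7 points but a lower place, rank 81 of 1416, where 74.6% of listed genes were detected in more of its cells. These 4 clusters had many genes on the same side as Car3, so the direction alone says little there.

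Cluster 4 was different. Only 41 of its 2072 listed genes, 1.98%, were detected in a larger share of its cells than of other cells, and the median listed gene was detected in 10.8% of its cells against 63.0% of the others. Car3 was among the 41, with 62.1% against 21.7%, a difference of 40.4 points. It ranked 2 of 2072, behind Cd36, the fatty acid transporter of the adipocyte surface, which had 69.0% in cluster 4 and 25.3% elsewhere. Scd1, the desaturase that makes oleate, ranked 3, with 97.7% against 61.7%.

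**Figure D3:**
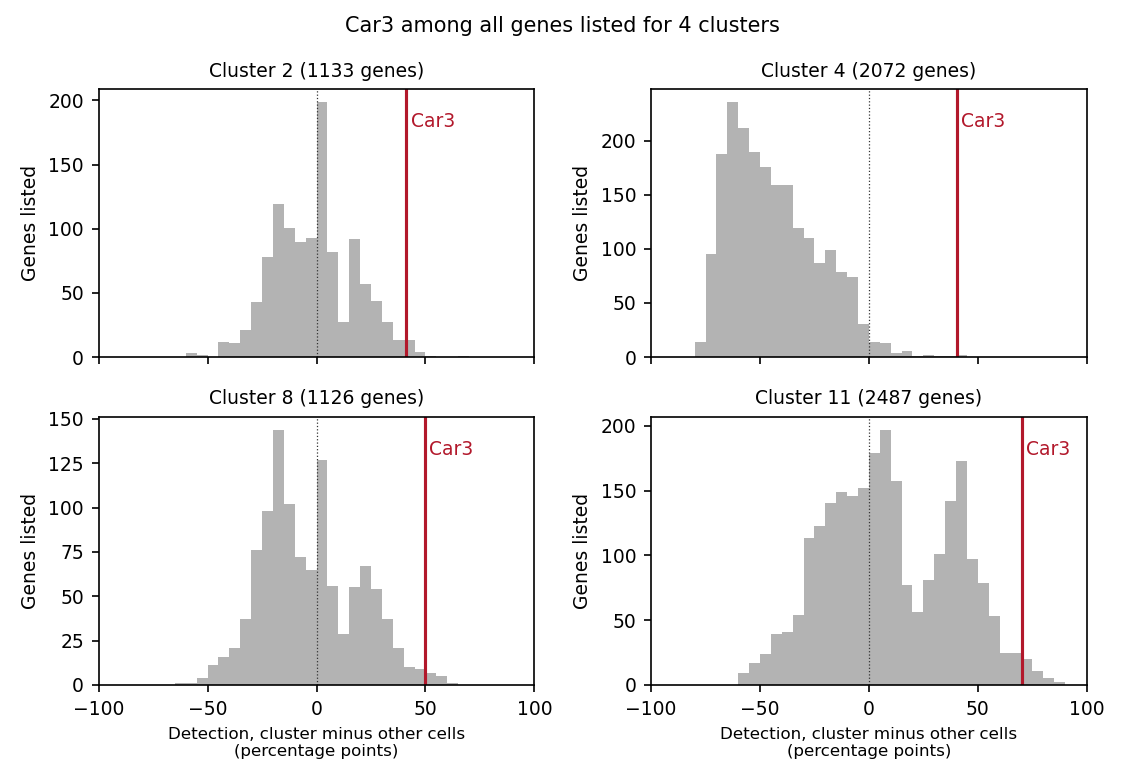
Number of listed genes (y axis) by the difference of detection between the cluster and all other cells, in percentage points (x axis), for clusters 2, 4, 8 and 11. The red line marks Car3, at 41.2, 40.4, 49.8 and 70.1 points, which in cluster 4 stands far to the right of nearly all of the 2072 genes.

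In the clusters where Car3 was scarce, its shortfall was among the widest listed. It ranked 2 from the bottom in clusters 1, 5 and 9, where it was detected in 0.6%, 1.9% and 2.1% of cells against 29.6%, 27.8% and 27.0% of the others. The share of listed genes that also fell on the low side was 27.2% in cluster 1, 13.8% in cluster 5 and 7.36% in cluster 9. Car3 ranked 4 from the bottom in cluster 0, 5 in cluster 3 and 8 in cluster 7, against shares of 21.5%, 32.8% and 16.3%. In cluster 10 the low side held 99.9% of the 718 listed genes and Car3 ranked 630 from the bottom, so its 0.9% there was not unusual. The median listed gene of cluster 10 was detected in 8.1% of its cells.

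Clusters 5, 6 and 9 were all rich in genes of the cell cycle but differed in Car3. The cluster 5 list held 7 of 8 proliferation genes, and those of clusters 6 and 9 held 8 of 8, each detected in more of the cluster's cells than elsewhere. Most listed genes were on that side too, 74.6% in cluster 6 and all but 13.8% and 7.36% in clusters 5 and 9. The median difference of the proliferation genes was 61.2, 69.1 and 70.8 points in clusters 5, 6 and 9, against 25.9, 10.7 and 23.9 over all listed genes. Mki67, the nuclear antigen of cycling cells, was detected in 78.6%, 92.0% and 91.2% of their cells. Car3 was nevertheless at 71.5% in cluster 6 and at 1.9% and 2.1% in clusters 5 and 9. Clusters 6 and 9 thus had nearly the same Mki67 detection and stood far apart in Car3. Of the 12 adipocyte markers, the 9 listed for cluster 5 and the 4 listed for cluster 9 were all on the low side, with median differences of -15.2 and -12.8 points. The 4 listed for cluster 6 were on the high side, like 74.6% of its listed genes, with a median difference of 30.3 points against 10.7 over all of them.

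Cd36 followed Car3 most closely of the 428 genes that shared at least 8 clusters with it. Likeness was measured as the mean absolute difference of detection over shared clusters, and it is a description over points that come from the same cells and libraries. Cd36 differed from Car3 by 4.14 percentage points on average over 11 clusters, against 52.2 points for the median gene. Its detection was 99.8%, 87.7%, 78.2%, 69.0% and 68.4% in clusters 11, 8, 6, 4 and 2, in that order, and 1.0% to 3.5% in clusters 0, 1, 3, 5, 9 and 10. The order of the 5 high clusters was that of Car3, for which clusters 8 and 6, and clusters 4 and 2, cannot be told apart. Cluster 7 had no entry for Cd36 and is not in the likeness. Solved from the other clusters, Cd36 detection there was 13.4%, against 4.4% for Car3. Cdo1, the dioxygenase that breaks down cysteine, came next at 4.37 points over 9 clusters, and Folh1, a membrane carboxypeptidase, at 5.07 points over 9.

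The fourth was Adipoq, which encodes the fat hormone adiponectin, at 6.11 points over 8 clusters. It had 92.1% in cluster 11 but only 40.1% in cluster 2 and 40.5% in cluster 4, so it fell off from cluster 11 more steeply than Car3 did. Scara5, a ferritin receptor, differed by 8.4 points, Pnpla2, the lipase that starts triglyceride breakdown, by 8.97, Fcor by 9.1, the cyclic AMP phosphodiesterase Pde3b by 9.49, Arxes2 by 9.78, and A2m, a secreted protease inhibitor, by 10.2. A2m departed from the others listed for cluster 11, at 46.0%, below its 82.4% in cluster 2. Among the nearest genes listed for cluster 4, where Car3 was at 62.1%, Fcor and Pde3b departed most, at 21.4% and 21.6%. A2m and Arxes2 were also lower there, at 32.5% and 34.7%, while Cdo1 and Pnpla2 were at 54.5% and 63.0%. Folh1 and Scara5 had no entry for clusters 4 and 11, so their likeness skips both. Over all clusters without an entry, cluster 4 among them, their detection averaged 7.82% and 4.27%. Given the share of cells in cluster 4, averages this low place both genes below Fcor and Pde3b there. Across the 428 genes, 22 (5.14%) lay on the same side as Car3 in every shared cluster and 57 lay on the opposite side in every one.

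**Figure D4:**
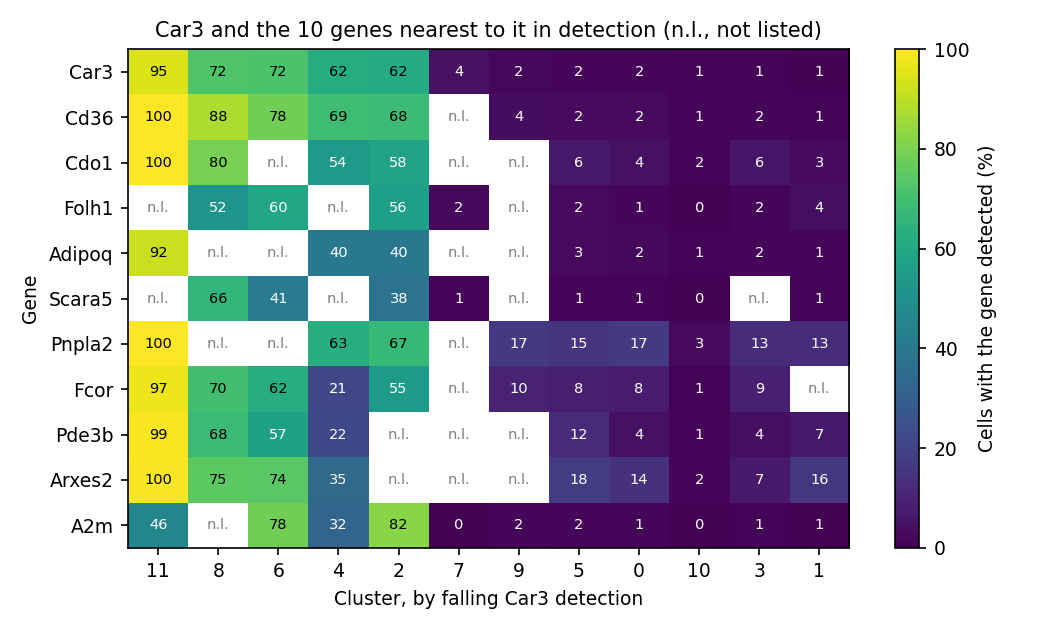
Percent of cells with the gene detected (colour and number, rounded) for Car3 and the 10 genes nearest to it (y axis) in the 12 clusters (x axis, by falling Car3 detection). Cells marked n.l. have no entry in the table, which is not a value of 0. Cd36 keeps within a mean of 4.14 points of Car3, and A2m stands apart in cluster 11 at 46.0%.

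Fabp4, Lpl and Plin1 separated the clusters less sharply by detection than Car3, or than Cd36 in the 11 clusters that listed it. Fabp4, the adipocyte fatty acid carrier, also had an entry in all 12 clusters. Its detection was 98.5% or more in the 5 clusters rich in Car3, but it was also found in 92.6% of cluster 7, in 52.6% to 67.7% of clusters 0, 1, 3, 5 and 9, and in 19.7% of cluster 10. Cluster 7 therefore had Fabp4 in nearly every cell and Car3 in 4.4%. Lpl, the lipase that frees fatty acids from lipoproteins, was detected in 98.5% of cluster 7 and in 88.4% to 98.5% of clusters 0, 1, 3, 5 and 9. Plin1, which coats lipid droplets, was closer to Car3, with 0.6% to 1.9% in the scarce clusters that list it and 99.8% in cluster 11. It reached only 27.8%, 29.3%, 45.5% and 50.6% in clusters 2, 4, 6 and 8, each below Car3.

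In cluster 11 itself 37 genes had a wider difference than Car3. The widest were Gpat3, which starts glycerolipid synthesis, with 93.0% against 5.0%, Plin1 with 99.8% against 14.4%, Lipe, the hormone-sensitive lipase, with 99.5% against 15.5%, Arxes1 with 97.1% against 14.1%, and the amino acid carrier Slc36a2 with 87.9% against 7.2%. Of these 37 genes, 32 were detected in fewer outside cells than Car3, whose 24.5% outside the cluster came mainly from clusters 2, 4, 6 and 8. By detection inside the cluster alone Car3 ranked 467 of the 2487 genes, and by the ratio of the percentages it ranked 190.

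Of 16 carbonic anhydrase genes looked up, 4 had an entry, and cluster 11 was the one that listed all 4. That cluster also had the longest list, 2487 of 3903 symbols, of which 59.5% were on the high side. Car5b, one of the mitochondrial enzymes, had 89.7% in cluster 11 and 9.5% elsewhere. Car13, a cytosolic enzyme, was detected in 70.5% against 15.3%, and Car2, the fast cytosolic enzyme, in 54.9% against 4.5%. Beyond cluster 11 only Car5b was listed, in cluster 4, with 13.9% against 10.4%. Solved over all cells, detection was 25.5% for Car3, 16.1% for Car13, 10.7% for Car5b and 5.26% for Car2. Over the clusters that do not list them, the average was 15.3% for Car13, 9.04% for Car5b and 4.5% for Car2. Car3 was the family member with entries in clusters 2, 6 and 8, where a missing entry of the others gives no level for a single cluster. No entry was found for Car1, Car4, Car5a, Car6, Car7, Car8, Car9, Car10, Car11, Car12, Car14 and Car15 in the table as used here.

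Carboxylases that use bicarbonate were looked up together with the related malic enzyme Me1, which releases carbon dioxide. Of these 10 genes, 5 had an entry in cluster 11 and all 5 were on the high side, where 59.5% of all its listed genes lay, with a median difference of 47.1 points against 6.6 over all listed genes. Pcx, pyruvate carboxylase, was at 96.4% against 17.4%, and Acaca, the acetyl-CoA carboxylase of fatty acid synthesis, at 93.2% against 31.4%. Pcca and Mccc1, subunits of the propionyl-CoA and methylcrotonyl-CoA carboxylases, were at 64.0% and 50.7%. Me1 was at 78.1% against 33.0%. In cluster 4, where Car3 stood out, the 3 of them listed were all detected in fewer cells than elsewhere, and Pcx was at 17.8% against 18.7%. Their median difference of -11.7 points was smaller than the -47.2 points over all genes listed for cluster 4. In cluster 8 the pair listed was divided, with Pcx at 55.3% against 16.3% and Me1 at 13.4%, a difference of -21.6 points. Me1 was the member listed for cluster 2, at 13.3% against 36.5%, and none was listed for cluster 6.

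Carriers of bicarbonate and of protons were mixed. Of 9 looked up, 4 were listed for cluster 11, and 3 of them were on the high side, where 59.5% of all its listed genes lay. The sodium bicarbonate cotransporters Slc4a4 and Slc4a7 were at 87.9% against 32.4% and 63.3% against 23.6%. The lactate carriers parted, with Slc16a1 at 82.0% against 38.8% and Slc16a3 at 20.0% against 56.7%. Slc4a4 was also on the high side in cluster 8, at 76.2% against 30.5%, and Slc16a3 on the low side, at 44.6% against 56.9%. Slc16a1 was high in clusters 2, 6 and 8, at 70.7%, 76.2% and 69.9% against 35.2%, 36.5% and 37.5%. Of all genes listed there, 49.3%, 74.6% and 42.3% were high. In cluster 4 Slc4a4 and Slc16a1 were on the low side, at 17.2% against 34.9% and 17.1% against 41.8%. Only 1.98% of all genes listed for cluster 4 were on the high side.

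The genes of thiol and peroxide defence showed no common direction in the clusters where Car3 was frequent, except cluster 4. In cluster 11, 9 of the 15 listed members were on the high side and 6 on the low side, near the 59.5% of all its listed genes that were high. Their median difference was 7.4 points beside 6.6 over all listed genes. In clusters 2, 6 and 8, 5 of 7, 8 of 11 and 5 of 10 were on the high side, beside 49.3%, 74.6% and 42.3% of all listed genes. In cluster 11 Cat, the catalase of peroxisomes, was at 98.9% against 37.1%, and Prdx3, a mitochondrial peroxidase, at 94.2% against 49.5%. Gpx8 and Gstm2, a peroxidase of the endoplasmic reticulum and a glutathione transferase, were at 29.1% against 66.8% and 25.9% against 57.7% in that cluster. In cluster 4 all 14 listed members were on the low side, as were nearly all its listed genes, with a median difference of -51.9 points beside -47.2 over all its listed genes. Cat was at 66.5% in cluster 6 and 75.4% in cluster 8, as against 30.4% in cluster 4.

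Adipocyte markers were on the high side in the Car3-rich clusters, with 2 exceptions in cluster 4. In cluster 11 all 11 listed were high, beside 59.5% of all its listed genes, and their median difference was 71.4 points against 6.6. The 5 listed for cluster 2 and the 7 listed for cluster 8 were high, beside 49.3% and 42.3% of all listed genes, with medians of 29.5 against -0.5 and 30.7 against -6.2 points. In cluster 4, 9 of 11 were high, beside 1.98%, and the median was 15.0 against -47.2 points. Of 14 fatty acid genes, 13 were listed for cluster 11 and all 13 were on the high side, beside 59.5% of all its listed genes. The 5, 6 and 4 listed for clusters 2, 6 and 8 were also high, beside 49.3%, 74.6% and 42.3%. In cluster 4, 7 of 12 were, beside 1.98%. Their median differences were 54.8, 24.8, 35.6, 32.4 and 10.9 points in clusters 11, 2, 6, 8 and 4. Over all listed genes the medians were 6.6, -0.5, 10.7, -6.2 and -47.2 points. Both lists share Fabp4, Lpl and Cd36. Of 8 thermogenic genes, 3 were listed for cluster 11, all on the high side, beside 59.5% of all its listed genes. Cox7a1 was at 72.3% against 13.8%, Ppargc1a at 47.5% against 1.8% and Elovl3 at 36.7% against 2.8%. Car3 was detected in more of the cluster's cells than these, at 94.6%, but also in more of the other cells, at 24.5%. The other members, Ucp1, Cidea, Cox8b, Dio2 and Cpt1b, had no entry for any cluster, which gives no level for them. None of the 3 was listed for clusters 2, 6 or 8, and cluster 4 listed Cox7a1, at 19.5% against 14.2%.

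Preadipocyte markers were mostly on the low side in clusters 4, 6, 8 and 11 and divided in cluster 2. In cluster 11, 5 of the 6 listed were on the low side, while 59.5% of all its listed genes were on the high side. The median difference of the 6 was -35.1 points against 6.6 over all listed genes. Among the 5 was the receptor Pdgfrb, at 12.4% against 65.0%, and Itgb1 was at 87.8% against 86.6%. In cluster 1, where Car3 was lowest, 4 of 4 were on the high side, but so were all but 27.2% of its listed genes, and the median difference was 27.5 points against 16.0. The protease Mmp3 was at 87.7% against 42.6%. The 3, 2, 2 and 2 listed for clusters 3, 5, 7 and 9 were also high, and 2 of 3 in cluster 0. So were all but 32.8%, 13.8%, 16.3%, 7.36% and 21.5% of their listed genes, in that order. The median difference was above that of all listed genes in clusters 3 and 7, at 22.6 against 9.4 and 18.1 against 12.9 points. In clusters 0, 5 and 9 it was below, and the 1 listed for cluster 10 was low. In cluster 2 the 4 listed were divided, 2 high and 2 low, beside 49.3% of all its listed genes on the high side. In cluster 8, 4 of 5 were low and in cluster 6, 2 of 3, where 42.3% and 74.6% of all listed genes were high. Their median differences were -18.5 against -6.2 and -12.0 against 10.7 points. In cluster 4 all 6 were low, as were nearly all its listed genes, with a median of -60.8 against -47.2 points. Because Car3 is also a muscle gene, 12 skeletal muscle markers were looked up beside 5 immune, 4 endothelial and 4 glial ones, and 0 had an entry. Such genes fell short of the authors' minimums everywhere, so this sets no level for these cell types. The authors had taken out cells of immune, endothelial and glial type before clustering, so the lookup is no check on those types. Of 6 erythroid markers the one listed was Car2.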

How the data were processed

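Single-cell RNA was captured with a 3′ droplet chemistry from 8 samples in 4 groups of 2, grouped by their titles. Per the study's methods and the submitters' processing notes, the authors mapped reads to mm10 with Cell Ranger 6.0.0, equalized read depth between captures, filtered and log-normalized cells in Seurat, took out cells of immune, endothelial and glial type, formed 12 clusters and compared each with the rest by MAST. No removal of doublets is described, and the table holds no single cells in which to look for them. The deposited values used are 2 detection fractions per entry, over the cluster's cells and over all other cells, given as percents. The larger was at least 10.1% in every entry. The table's fold changes and p-values are the authors' own comparisons and were not used. The 12 cluster shares were solved by least squares from the 10 genes listed for every cluster, a procedure tested on simulated data, and Car3 is 1 of these 10. The 7 date-like symbols left by a spreadsheet (35 entries) were left out of likeness and shares. No statistical test was run. The number of unused columns with values per sample is 0. Depth is unknown, so no interval is given.

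Named genes were Car3, the other carbonic anhydrases listed, the 10 genes nearest to Car3 over at least 8 shared clusters, the 5 with the widest difference in cluster 11, and members of marker and pathway lists. The gene and the lists were chosen with earlier results of these data known. Python 3.11.15, numpy 2.4.6, pandas 2.3.3 and matplotlib 3.10.9 were used.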

Additional observations from a re-analysis of the deposited data

How the results depend on the processing

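No paired analysis was possible because all samples are pooled in the deposited values and nothing was tested. Leaving out a replicate was not possible for the same reason. Solving the cluster shares from the 2687 genes listed for at least 2 clusters, or without Car3 itself, moved no share of Car3-positive cells by more than 0.0898 percentage points and gave 25.5% and 25.4% for Car3 detection over all cells. A minimum fraction of 0.25 kept all 12 shares of listed genes on the side of Car3 within 1.5 times, and a minimum difference of 10 percentage points kept the 9 list counts of cluster 11 within 1.5 times or within 1 gene.

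Without clusters 4 and 10, an alternative chosen after the data had been seen, the Car3-positive cells fell to clusters 2, 6, 8 and 11 in shares of 38.4%, 27.4%, 22.0% and 7.28% and to clusters 7, 0 and 5 in shares of 1.49%, 1.18% and 0.858%, by construction, since fewer cells are counted. The rank of Car3 in cluster 11 changed from 38 to 190 by the ratio of detection and to 467 by detection in the cluster alone. Of the 10 genes nearest to Car3, 6 were kept by Pearson r and 6 with at least 6 shared clusters, and 8 without clusters 4 and 10. Cd36 stayed nearest under all 3. The cells and reads behind the fractions are unknown, so the effect of depth was not measured.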
